A study of Homo sapiens with 12 samples.

Results

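The 10 genes described here belong to the JAK-STAT3 pathway. The kinases JAK1 and JAK2, the transcription factor STAT3, the inhibitors SOCS1, SOCS2, SOCS3 and CISH, and the kinases PIM1, PIM2 and PIM3, were followed in 3 human multiple myeloma cell lines with and without stromal cells. The genes were taken by name, and every probe set that the array's annotation pairs with one of them was used. That gave 29 probe sets for 10 of the 19775 genes on the array. Of these, 21 probe sets passed the filter on low values, and each of the 10 genes kept at least 1. The lines were MM.1S, MM.1R and INA-6, all stably carrying green fluorescent protein (GFP). MM.1R shares its parental line with MM.1S and resists glucocorticoids, and INA-6 is a line that needs interleukin 6 (IL6) to grow. In coculture the cells of a line had spent 24 h beside HS-5, stromal cells of human bone marrow kept as a line and free of GFP, and the cells kept alone had spent the same time without it. Cell sorting then collected the GFP-positive cells. RNA of each of the 6 groups (MM.1S coculture, MM.1R coculture, INA-6 coculture, MM.1S alone, MM.1R alone, INA-6 alone) was measured on 2 Affymetrix U133 Plus 2.0 arrays, described as technical replicates, so each line stands for 1 culture per condition. The labels do not say whether IL6 was added to the medium of any group.

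IL6 and its relatives bind receptors that pair with the shared chain gp130 (IL6ST), and JAK kinases held on that chain then phosphorylate STAT3. Phosphorylated STAT3 enters the nucleus and switches on genes that include its own inhibitor SOCS3, which binds gp130 and blocks the JAKs, and PIM1, a serine/threonine kinase that favours survival and growth. IL6 from stromal cells is a well-known growth and survival signal for myeloma cells in the bone marrow. SOCS1 also blocks JAKs directly and is best known from interferon signalling, while SOCS2 and CISH are best known as targets and inhibitors of STAT5 signalling.

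The values are the authors' linear intensities, and differences are given as log2 of the value plus 5, a scale that understates the change of low values. A difference was called when limma's adjusted p, over all 35664 probe sets tested, was under 0.05. The median intensity of an array lay between 19.8 and 24.1. The 75th percentile was lower in INA-6 alone, at 73.6 and 69.9, than on the other arrays, at 99.2 to 128.5. Duplicate arrays correlated at 0.929 to 0.982 over the tested probe sets, except INA-6 alone, whose duplicates correlated at 0.821. Markers of stromal cells moved with coculture: the summed intensity of 32 stromal genes was 15210 to 15260 in MM.1S coculture against 2097 to 2277 in MM.1S alone, 30060 to 31110 in MM.1R coculture against 2430 to 2466 in MM.1R alone, and 13670 to 13730 in INA-6 coculture against 3828 to 5536 in INA-6 alone. At or below their array's median on both duplicates were 0, 2 and 2 of the 32 in MM.1S, MM.1R and INA-6 coculture, against 11, 12 and 9 in the same lines alone. A sum weighs bright genes most, and not all of the 32 rose. The difference lay above 0 for 26, 29 and 24 of them in MM.1S, MM.1R and INA-6. COL1A1 was called lower in INA-6 (-1.76, limma adjusted p = 0.0274), and TAGLN, MYL9 and TIMP3 stood below 0 in each line without a call. The sum of 14 myeloma genes was 30730 to 31520 in MM.1S coculture against 16420 to 16490 alone, 30890 to 31510 in MM.1R coculture against 23910 to 24710 alone, and 21250 to 21430 in INA-6 coculture against 26000 to 26530 alone. These genes too were mixed, with 11, 9 and 6 of the 14 above 0 in MM.1S, MM.1R and INA-6. In INA-6, 4 were called higher (DERL3, PRDM1, IRF4 and POU2AF1) and 5 lower, against 38.2% and 12.5% of all genes. SLAMF7, CD79A and DERL3 stood below 0 in both MM.1 lines without a call. Of 8 blood cell markers 3 were tested, and their sum was 675.1 to 679.1 in MM.1S coculture against 1297 to 1642 alone, 610.1 to 809.8 in MM.1R coculture against 852.7 to 861.1 alone, and 708.2 to 727.3 in INA-6 coculture against 2560 to 4149 alone. Of these, HBB fell by 2.23 and CD3E by 2.49 in INA-6 (adjusted p = 0.00017 and 0.00582). HBB also fell by 1.08 in MM.1S (adjusted p = 0.0106). CSF1R, the other marker tested, went the other way in INA-6 without a call, averaging 49.58 in coculture against 30.3 alone. HBB, which averaged 623.9 in INA-6 coculture against 2996 alone, made up most of that line's sum. The part of blood cells was not tested. The part that HS-5 RNA had in any value below was not tested, and sorted HS-5 cells were not analysed here. The 3′ to 5′ ratio of the ACTB control, a sign of RNA length, averaged 5.11, 5.21 and 32 in MM.1S, MM.1R and INA-6 coculture, against 22.4, 31.4 and 5.52 in the same lines alone, so it ran in opposite directions in the MM.1 lines and in INA-6. Its part was not tested. In such pooled RNA a change in the share of cells of a kind and a change in RNA per cell cannot be told apart.

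STAT3 and its relatives bind DNA at palindromes with TTC on one side and GAA on the other. The 250 bases before the start of each gene were searched for TTCNNGAA, TTCNNNGAA and TTCNNNNGAA, which read the same on both strands in their fixed letters. The sequences are RefSeq's (GRCh38.p14, 5′ to 3′ on the gene's strand, with the matches in capitals), and the 3 promoters that held a match are shown because they include the inhibitor that differed most between conditions, the factor itself and the inhibitor with most matches.
STAT3, chr17:42388443-42388692, minus strand: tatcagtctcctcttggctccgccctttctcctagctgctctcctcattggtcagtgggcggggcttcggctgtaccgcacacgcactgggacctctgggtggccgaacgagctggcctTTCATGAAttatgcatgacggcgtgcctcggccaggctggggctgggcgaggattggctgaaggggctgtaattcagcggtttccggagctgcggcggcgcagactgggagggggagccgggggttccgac
SOCS3, chr17:78360926-78361175, minus strand: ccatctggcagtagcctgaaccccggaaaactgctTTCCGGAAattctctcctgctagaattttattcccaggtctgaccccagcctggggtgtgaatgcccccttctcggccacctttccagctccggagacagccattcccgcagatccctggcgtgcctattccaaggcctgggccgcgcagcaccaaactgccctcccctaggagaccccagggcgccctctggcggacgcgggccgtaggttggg
CISH, chr3:50611775-50612024, minus strand: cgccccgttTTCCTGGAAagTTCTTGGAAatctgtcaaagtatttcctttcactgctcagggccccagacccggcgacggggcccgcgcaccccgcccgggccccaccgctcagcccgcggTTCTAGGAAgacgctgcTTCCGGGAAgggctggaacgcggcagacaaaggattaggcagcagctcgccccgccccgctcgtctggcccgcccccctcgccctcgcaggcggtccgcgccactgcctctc
The STAT3 window held 1 match, TTCATGAA, whose first base lies at -131 from the start, and the SOCS3 window held 1, TTCCGGAA at -215. The CISH window held 4 matches to TTCNNNGAA, at -241, -230, -129 and -112. No match was found in the windows of JAK1, JAK2, SOCS1, PIM1, PIM2 and PIM3, and that of SOCS2 was not analysed here. Promoters listed were 3 for JAK1, 4 for JAK2 and 2 for SOCS3, of which only the 1 at the outermost start of the gene was searched. Of 27305 promoters of the same length, 6.72% held TTCNNGAA, 6.78% TTCNNNGAA and 5.36% TTCNNNNGAA, 17.3% held any of the 3, and 0.0293% held 3 or more copies of TTCNNNGAA. A match is a run of letters and was not tested as a binding site.

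Most member probe sets called within a line were higher in coculture, as were 69.4%, 75.1% and 73.7% of all probe sets called in MM.1S, MM.1R and INA-6. Called higher were SOCS3 in each line, STAT3 by 2 probe sets in the MM.1 lines and by 1 in INA-6, and PIM1 in MM.1S and INA-6. Also called higher were JAK2 by 1 probe set in MM.1S and INA-6, PIM2 in MM.1S, and PIM3 and 2 JAK1 probe sets in INA-6. Called lower were SOCS2 in INA-6 and JAK1 by 1 probe set in MM.1S and by another in MM.1R. In MM.1S, 7 of the 21 member probe sets were higher and 1 was lower in coculture, 38.1% against 29.3% of all probe sets called in that comparison. In MM.1R, 4 were higher and 1 lower, 23.8% against 14% of all probe sets. In INA-6, 8 were higher and 1 lower, 42.9% against 47.7% of all probe sets. The share of members called was thus near that of all probe sets in each line. Taking the line as the replicate, limma called 0 of the 21, against 1.13% of all probe sets. In that test 7 of the 21, and 6919 of the 35664 probe sets, had an unadjusted p under 0.05. At least 2-fold higher in each of the 3 lines were 5 of the 21 (1 for JAK2, 1 for STAT3, 2 for SOCS3 and PIM1), against 5.47% of all probe sets, and 0 were at least 2-fold lower in each, against 0.608%. For 6 of the 21 all coculture arrays lay above all arrays of cells alone, against 10.9% of all probe sets, and for 1, SOCS2, all lay below, against 1.91%. With 1 probe set per gene the median difference of the 10 members was 0.56 in MM.1S, 0.48 in MM.1R and 0.99 in INA-6, beside medians of 0.11, 0.09 and 0.47 over all 15052 genes tested.

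**Figure D1:**
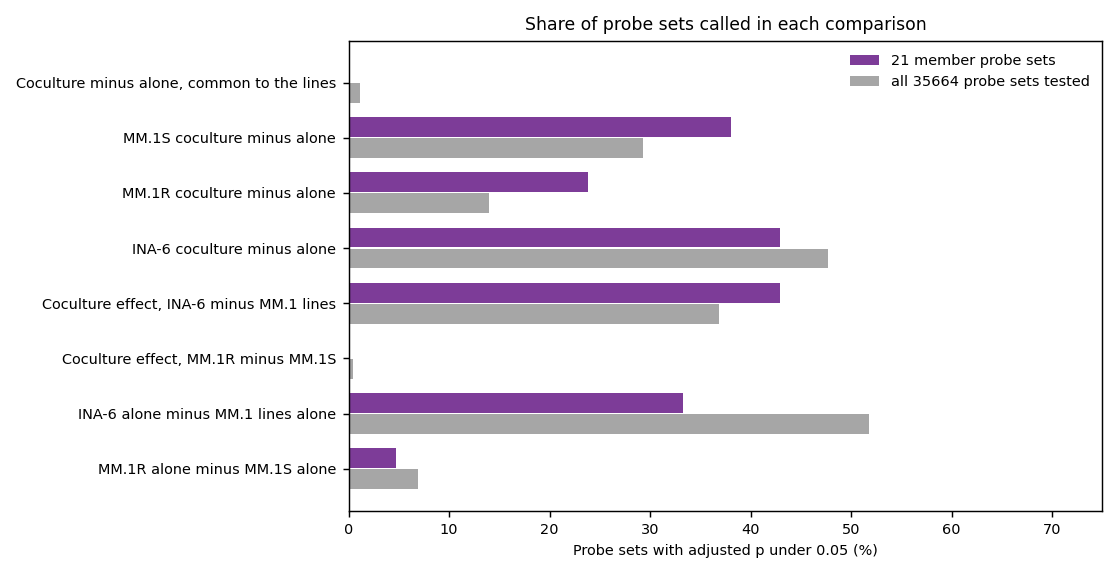
Share of probe sets with a limma adjusted p under 0.05 (percent, horizontal axis) in each comparison, for the 21 member probe sets (purple) and all 35664 tested (grey). For the coculture effect the members' bar is the longer in MM.1S (38.1%, all probe sets 29.3%) and in MM.1R (23.8%, all 14%), and the shorter in INA-6 (42.9%, all 47.7%).

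JAK1, the kinase thought to carry most of gp130's signal, was measured high by its leading probe set (201648_at) in all groups. It read 927 and 776 in MM.1S coculture against 802 and 721 alone, 1008 and 1098 in MM.1R coculture against 782 and 939 alone, and 1027 and 1008 in INA-6 coculture against 756 and 302 alone. The arrays of the conditions overlapped in MM.1S and lay apart in MM.1R and INA-6. The difference was 0.16 ± 0.37 (log2, SE) in MM.1S, where quantile normalization turned it to -0.18, 0.29 ± 0.37 in MM.1R and 1.08 ± 0.37 in INA-6, where JAK1 was called higher (limma adjusted p = 0.0422). That call was lost without any 1 of 11 arrays, all but INA-6 alone replicate 1 (0.43 to 1.09, adjusted p up to 0.136), without which the difference was 1.73, and it was lost on quantile normalization, median centring and without the filter.

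A second JAK1 probe set, 1552611_a_at, read 251 and 275 in INA-6 coculture against 55.2 and 31.7 in INA-6 alone, a rise of 2.51 ± 0.30 (adjusted p = 0.000275). In MM.1R it read 125 and 87.8 in coculture against 244 and 228 alone, a fall of 1.13 on the log2 scale (adjusted p = 0.0392), which was lost without any 1 of 8 arrays (-1.38 to -0.89, adjusted p up to 0.224), those of MM.1S alone and INA-6 alone excepted. In MM.1S it read 137 and 145 in coculture against 112 and 165 alone, with no call. The JAK1 probe sets thus disagreed in direction in MM.1R. The third, 239695_at, read 37.6 and 28.3 in MM.1S coculture against 83.2 and 86.0 alone, and fell by 1.25 (adjusted p = 0.00711), a call lost without MM.1S coculture replicate 2 (adjusted p = 0.0662). The fourth, 1552610_a_at, ranged from 24.5 to 39.1 in coculture against 14.4 to 33.4 alone and was not called in any line.

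JAK2, the partner kinase on gp130 and on many cytokine receptors, was low on all arrays. Its leading probe set, 205842_s_at, ranged from 14.2 to 20.2 in coculture against 4.24 to 43.6 alone, so the groups overlapped and no line was called. Its other tested probe set, 205841_at, read 20.99 and 26.2 in MM.1S coculture against 1.26 and 8.68 alone, 27.7 and 17.7 in MM.1R coculture against 8.5 and 5.3 alone, and 5.83 and 12.4 in INA-6 coculture against 1.17 and 1.41 alone. In each line both coculture arrays were the higher, although most values lay near or under the array median. The difference was 1.62 ± 0.40 in MM.1S (adjusted p = 0.0169), 1.21 ± 0.40 in MM.1R (adjusted p = 0.0895) and 1.13 ± 0.40 in INA-6 (adjusted p = 0.0473). The MM.1S call was lost without either MM.1S coculture array or MM.1S alone replicate 1 (1.06 to 1.75, adjusted p up to 0.103). The INA-6 call was lost without any 1 of 10 arrays, those of MM.1S alone excepted (0.78 to 1.47, adjusted p up to 0.254).

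STAT3, the factor that the kinases activate, was called higher in coculture by 1 of its 4 probe sets in each line, by a second in the MM.1 lines, and by neither of the others in any line. The probe set with the highest mean, 225289_at, read 707 and 672 in MM.1S coculture against 498 and 413 alone, 594 and 689 in MM.1R coculture against 362 and 377 alone, and 571 and 589 in INA-6 coculture against 546 and 132 alone. All 6 coculture arrays lay above all 6 arrays of cells alone. Even so the differences of 0.60 ± 0.53, 0.78 ± 0.53 and 1.09 ± 0.53 were not called. The 2 INA-6 alone arrays set this spread: without INA-6 alone replicate 1 the INA-6 difference was 2.09 (adjusted p = 4.33e-05), without replicate 2 it was 0.09 (adjusted p = 0.691), and with one or the other left out the MM.1S and MM.1R differences were called (adjusted p = 0.00941 and 0.00495 at the lowest).

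A second STAT3 probe set, 208991_at, read 613 and 543 in MM.1S coculture against 26.2 and 34.0 alone, 604 and 591 in MM.1R coculture against 82.2 and 52.9 alone, and 402 and 394 in INA-6 coculture against 189 and 142 alone. The conditions lay far apart in the MM.1 lines and closer in INA-6, where cells alone stood at a higher level. The rise was 4.06 ± 0.25 in MM.1S (adjusted p = 4.73e-05), 3.08 ± 0.25 in MM.1R (adjusted p = 0.000175) and 1.26 ± 0.25 in INA-6 (adjusted p = 0.00398). On quantile normalization the INA-6 value was 0.46 (adjusted p = 0.155). The third, 208992_s_at, read 156 and 132 in MM.1S coculture against 31.5 and 32.1 alone and 158 and 142 in MM.1R coculture against 42.1 and 31.8 alone, rises of 2.02 ± 0.25 and 1.89 ± 0.25 (adjusted p = 0.000617 and 0.00196). In INA-6 it read 99.8 and 128 in coculture against 93.4 and 139 alone, an overlap with a difference of -0.01 ± 0.25. The fourth, 243213_at, ranged from 25.3 to 43.7 in coculture against 8.04 to 70.6 alone and was not called in any line.

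**Figure D2:**
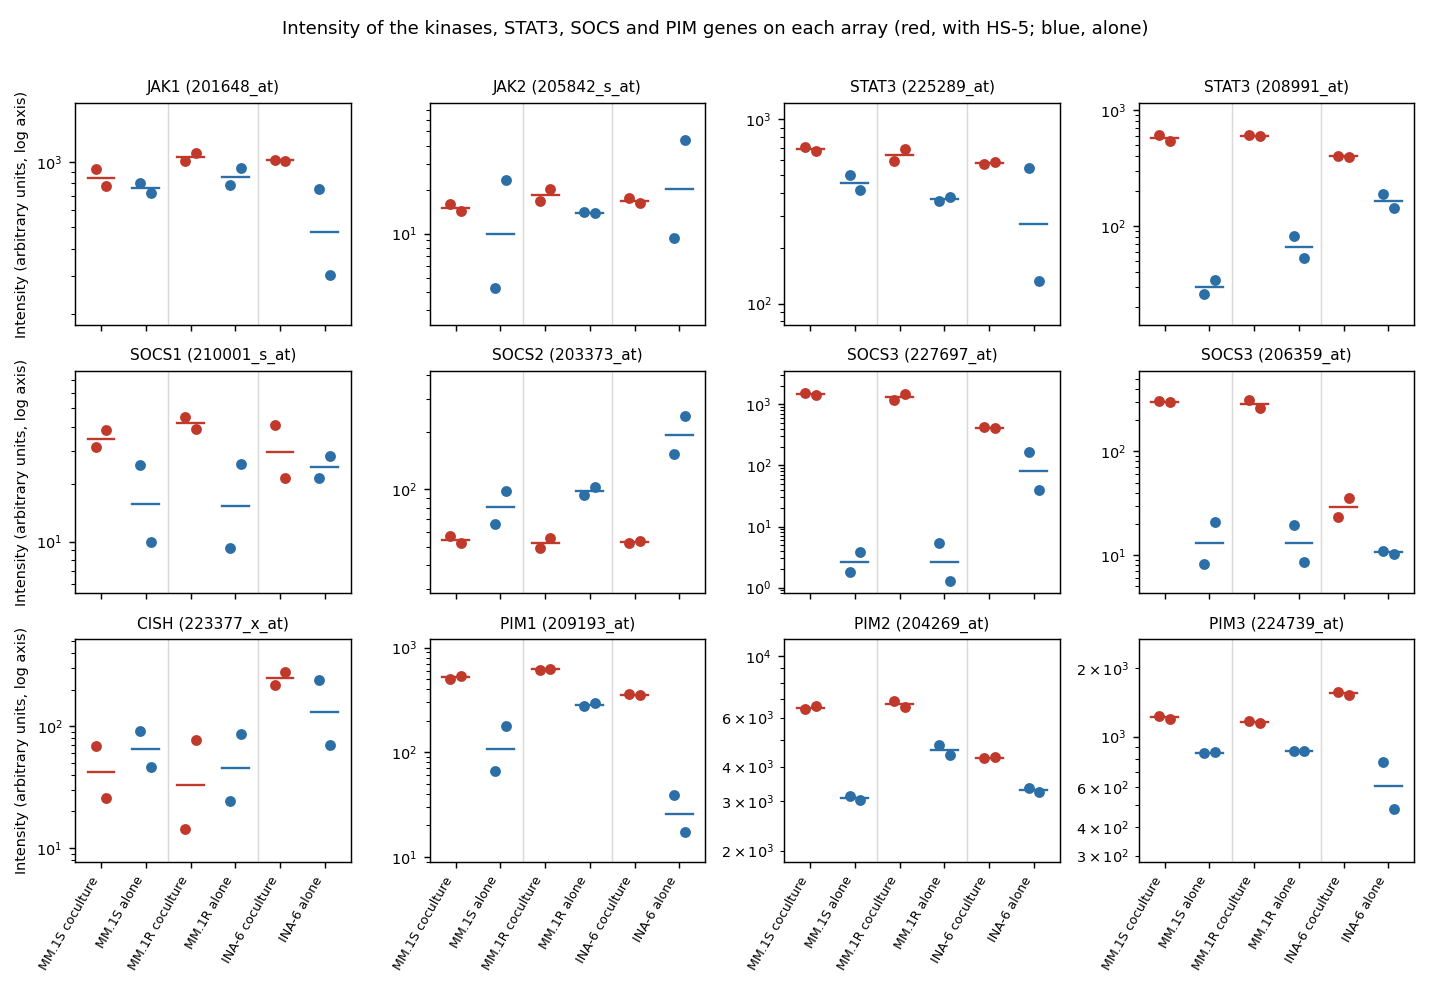
Intensity on each array (arbitrary units, log axis) of the probe set that stands for each gene, with a second one for STAT3 and SOCS3; red, coculture with HS-5; blue, alone; bars, geometric mean of the 2 arrays. SOCS3 (227697_at) lies at 1195 to 1544 in the MM.1 lines in coculture against 1.29 to 5.32 alone, and SOCS2 is the 1 gene with all coculture points below those of cells alone.

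SOCS3, the inhibitor that STAT3 induces, showed the largest difference of the members in MM.1S and MM.1R. Its leading probe set, 227697_at, read 1544 and 1402 in MM.1S coculture against 1.83 and 3.89 alone, and 1195 and 1487 in MM.1R coculture against 5.32 and 1.29 alone. In INA-6 it read 423 and 409 in coculture against 167 and 40.3 alone. In the order of levels the MM.1S and MM.1R coculture groups came first and overlapped, then INA-6 coculture, then INA-6 alone, and MM.1S and MM.1R alone came last, near the lowest value of 1 that the table holds, and overlapped. The rise was 7.57 ± 0.55 in MM.1S (adjusted p = 7.15e-05), 7.38 ± 0.55 in MM.1R (adjusted p = 0.000103) and 2.25 ± 0.55 in INA-6 (adjusted p = 0.00971). Because cells of the MM.1 lines alone stood near the floor, the size depends on the value added before the log: 8.63 and 8.45 in MM.1S and MM.1R with 1 added, and 6.03 and 5.87 with 20 added. In INA-6 it was 3.22 without INA-6 alone replicate 1 and 1.29 without replicate 2, called in both, and 1.72 on quantile normalization (adjusted p = 0.0541).

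With the lines as replicates the SOCS3 difference was 5.73 ± 1.01 (adjusted p = 0.0609), which missed the threshold. It passed with any 1 line left out, at 4.81 without MM.1S (adjusted p = 1.57e-06), 4.91 without MM.1R (adjusted p = 0.0175) and 7.47 without INA-6 (adjusted p = 4.75e-08). Few values remain in these fits, so their p-values rest largely on the spread that limma takes from all probe sets. Without INA-6 only MM.1S and MM.1R remain, which share a parental line. The SOCS3 difference passed with 1 probe set per gene (adjusted p = 0.0281). With arrays not averaged, which counts technical replicates as if they were cultures, it passed without (adjusted p = 0.000261) or with (adjusted p = 0.000573) a replicate block. It also passed without any 1 of 9 arrays, which were the 8 MM.1 arrays and INA-6 alone replicate 1 (adjusted p = 0.0265 to 0.0493), but not without either INA-6 coculture array or INA-6 alone replicate 2 (5.41, adjusted p = 0.111). The summed stromal markers were higher in the same groups, but the sizes did not run in parallel across the lines. Their sum was 15210 to 15260 in MM.1S coculture, 30060 to 31110 in MM.1R coculture and 13670 to 13730 in INA-6 coculture. The SOCS3 difference by the leading probe set was 7.6 in MM.1S, 7.4 in MM.1R and 2.3 in INA-6. The part of stromal RNA in the SOCS3 values was not tested. A second SOCS3 probe set, 206359_at, read 305 and 297 in MM.1S coculture against 8.18 and 20.9 alone, 309.6 and 264 in MM.1R coculture against 19.7 and 8.5 alone, and 23.4 and 35.6 in INA-6 coculture against 10.9 and 10.3 alone. It moved in the same direction, by 4.05 ± 0.39 and 3.99 ± 0.39 in the MM.1 lines (adjusted p = 0.000187 and 0.00042) and by 1.12 ± 0.39 in INA-6 (adjusted p = 0.0417). The INA-6 call was lost without any 1 of 8 arrays, those of MM.1S alone and MM.1R alone excepted (0.86 to 1.38, adjusted p up to 0.212). The other SOCS3 probe sets did not share this pattern: 206360_s_at ranged from 13.2 to 30.4 in coculture against 13.3 to 34.5 alone, and 214105_at from 10 to 19.1 against 14.3 to 35.5, with no line called.

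SOCS2 was the inhibitor that went the other way. Its tested probe set, 203373_at, read 57.0 and 52.0 in MM.1S coculture against 65.6 and 98.5 alone, 49.1 and 55.4 in MM.1R coculture against 93.8 and 103 alone, and 52.4 and 53.4 in INA-6 coculture against 154 and 242 alone. All 6 coculture arrays lay between 49.1 and 57.0, below all arrays of cells alone, among which INA-6 was the highest. SOCS2 fell by 1.78 ± 0.27 in INA-6 (adjusted p = 0.000895). The differences of -0.53 ± 0.27 in MM.1S and -0.86 ± 0.27 in MM.1R (adjusted p = 0.184 and 0.0719) were not called, although the MM.1R value was called without either INA-6 alone array (adjusted p = 0.0142 at the lowest). SOCS1 was low: 210001_s_at read 31.2 and 38.5 in MM.1S coculture against 25.2 and 9.91 alone, 45.2 and 38.7 in MM.1R coculture against 9.27 and 25.6 alone, and 40.6 and 21.6 in INA-6 coculture against 21.5 and 28.2 alone. The MM.1 arrays did not overlap between conditions and the INA-6 arrays did. Its differences of 0.90 ± 0.46, 1.17 ± 0.46 and 0.23 ± 0.46 were not called, and its second probe set, 213337_s_at, ranged from 6.20 to 24.7 in coculture against 6.71 to 61.7 alone with no line called.

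CISH, the family member with 4 promoter matches, could not be resolved. Its tested probe set, 223377_x_at, read 68.3 and 26.0 in MM.1S coculture against 91.6 and 46.8 alone, 14.4 and 77.1 in MM.1R coculture against 24.3 and 86.5 alone, and 221 and 279.9 in INA-6 coculture against 241 and 70.6 alone. Duplicates differed by as much as the conditions, and the groups overlapped in each line. The differences were -0.57 ± 0.88, -0.38 ± 0.88 and 0.89 ± 0.88, with no call. In MM.1S the interval of the difference was -2.60 to 1.46, which leaves room for a sizeable change in either direction. The 8 member probe sets that did not pass the filter (1 each of JAK1 and JAK2 and 2 each of SOCS1, SOCS2 and CISH) lay between 1 and 32.6, and 209999_x_at of SOCS1 stood at the floor of 1 on 9 of the 12 arrays.

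PIM1 was called higher in INA-6 and MM.1S coculture, PIM2 in MM.1S coculture and PIM3 in INA-6 coculture. PIM1, a known STAT3 target, read 501 and 537 in MM.1S coculture against 66.5 and 176 alone, 610.25 and 627 in MM.1R coculture against 276 and 294 alone, and 358 and 351.45 in INA-6 coculture against 38.6 and 17.2 alone (209193_at). The conditions did not overlap, and cells alone differed more among the lines than cells in coculture did. In order, MM.1R coculture was highest, then MM.1S coculture, INA-6 coculture, MM.1R alone, MM.1S alone and INA-6 alone, with no overlap between neighbours. PIM1 rose by 3.53 ± 0.44 in INA-6 (adjusted p = 0.000347) and by 2.20 ± 0.44 in MM.1S (adjusted p = 0.0063), and stood 1.11 ± 0.44 higher in MM.1R, which was not called (adjusted p = 0.151). With the lines as replicates the difference was 2.28 ± 0.53 (adjusted p = 0.103).

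PIM2, the PIM kinase best known from myeloma, differed little between duplicates. It read 6414 and 6614 in MM.1S coculture against 3128 and 3042 alone, 6876 and 6536 in MM.1R coculture against 4786 and 4387 alone, and 4300.5 and 4319 in INA-6 coculture against 3342 and 3244 alone (204269_at). The conditions did not overlap within any line. The rise in MM.1S was 1.08 ± 0.16 (adjusted p = 0.00152), but on quantile normalization it was 0.03 (adjusted p = 0.921). In MM.1R and INA-6 the differences were 0.55 ± 0.16 (adjusted p = 0.0587) and 0.39 ± 0.16 (adjusted p = 0.0786). Without either INA-6 alone array both were called, the MM.1R value at adjusted p = 0.0063 and the INA-6 value at adjusted p = 0.0222 at the lowest.

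PIM3, the third kinase of the family, read 1230.4 and 1199.5 in MM.1S coculture against 845 and 852 alone, 1172 and 1149 in MM.1R coculture against 863 and 866 alone, and 1577 and 1521 in INA-6 coculture against 774 and 479 alone (224739_at). All 6 coculture arrays lay above all 6 arrays of cells alone. It rose by 1.34 ± 0.23 in INA-6 (adjusted p = 0.00185), or by 1.68 without INA-6 alone replicate 1 and 0.996 without replicate 2, called in both. In MM.1S and MM.1R the differences were 0.52 ± 0.23 and 0.42 ± 0.23 (adjusted p = 0.137 and 0.312), and without either INA-6 alone array these too were called (adjusted p = 0.00337 and 0.0127 at the lowest).

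**Figure D3:**
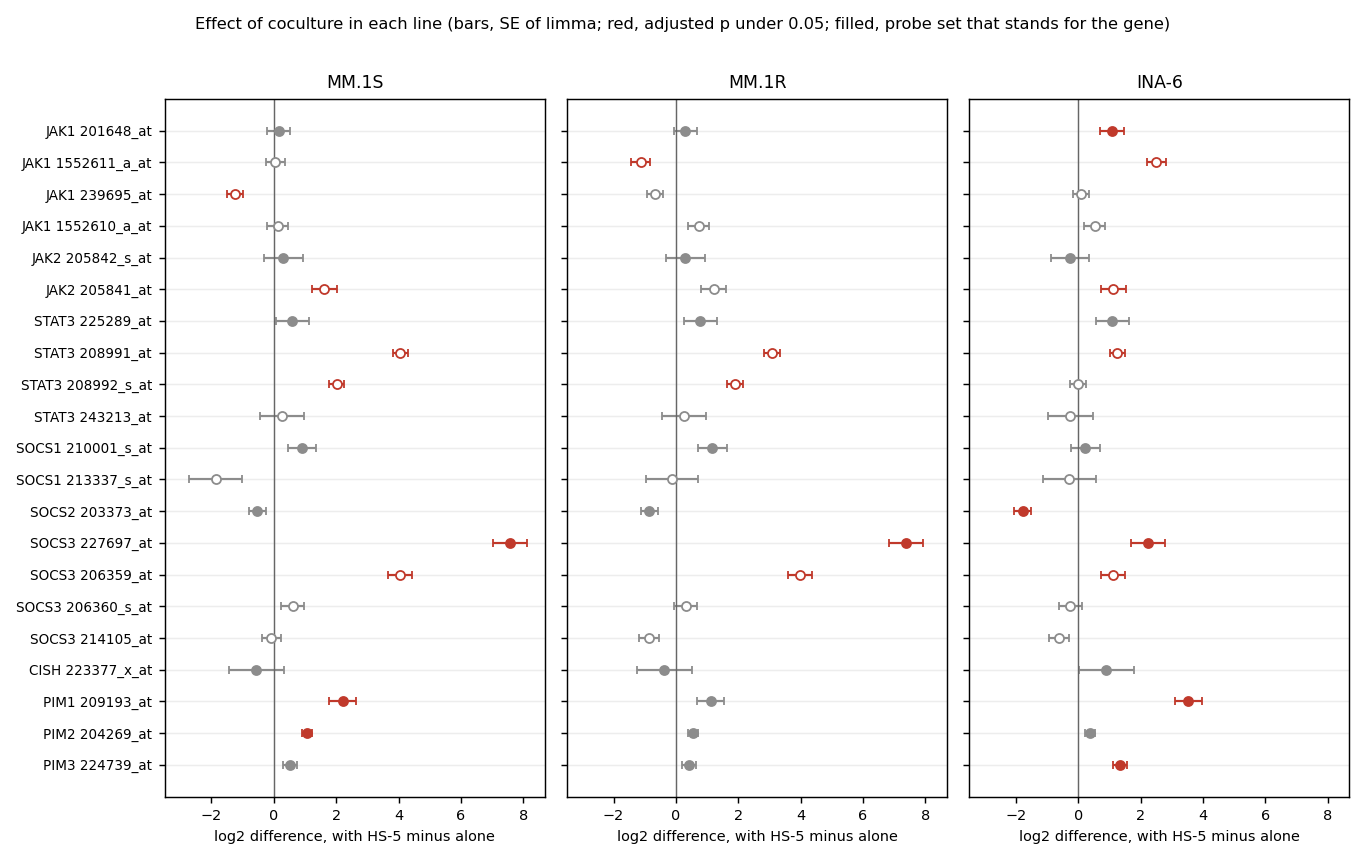
Difference of coculture from cells alone (log2, horizontal axis) for the 21 member probe sets in MM.1S, MM.1R and INA-6; bars, SE of limma's fit; red, adjusted p under 0.05; filled, the probe set that stands for the gene. SOCS3 (227697_at) lies at 7.57, 7.38 and 2.25, PIM1 at 2.20, 1.11 and 3.53, and SOCS2 at -0.53, -0.86 and -1.78.

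The effect of coculture in INA-6 was then set against the mean effect in MM.1S and MM.1R, a comparison in which 9 of the 21 member probe sets were called, 42.9% against 36.9% of all probe sets. SOCS3 rose less in INA-6: the difference of the effects was -5.22 ± 0.67 by 227697_at (adjusted p = 0.000659) and -2.90 ± 0.47 by 206359_at (adjusted p = 0.00204). Of the STAT3 probe sets, 2 did likewise, by -2.32 ± 0.31 for 208991_at and -1.97 ± 0.31 for 208992_s_at (adjusted p = 0.000793 and 0.00168), while the leading one, 225289_at, stood at 0.40 ± 0.64 and was not called (adjusted p = 0.669). For the 4 probe sets called for SOCS3 and STAT3 the call held under each alternative run for this comparison. PIM1 went the other way, with a larger rise in INA-6 by 1.88 ± 0.54 (adjusted p = 0.0262), as did PIM3 by 0.87 ± 0.28 (adjusted p = 0.0419) and JAK1 by 1552611_a_at by 3.05 ± 0.36 (adjusted p = 0.000473). For the JAK1 probe set 239695_at the difference of the effects was 1.04 ± 0.31 (adjusted p = 0.0315), from 0.08 in INA-6, not called, against -1.25 in MM.1S, called lower, and -0.67 in MM.1R, not called. For SOCS2 the difference of the effects was -1.09 ± 0.33 (adjusted p = 0.0308).

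Some of these differences were fragile. The PIM1 call was lost on quantile normalization (1.83, adjusted p = 0.0518) and without any 1 of 8 arrays, which excepted MM.1S alone, MM.1R alone replicate 1 and INA-6 alone replicate 1 (1.39 to 1.90, adjusted p up to 0.0825). PIM3 lost its call without any 1 of 10 arrays, INA-6 alone excepted (0.85 to 0.90, adjusted p up to 0.129), and stood at 0.53 and 1.21 without the one or the other INA-6 alone array, called in both. SOCS2 lost its call without any 1 of 9 arrays, which excepted MM.1S alone and INA-6 alone replicate 1 (-1.13 to -0.77, adjusted p up to 0.0976). The JAK1 probe set 239695_at lost its call without any 1 of 8 arrays, which excepted MM.1S coculture replicate 1, MM.1R alone replicate 2 and INA-6 alone (0.95 to 1.13, adjusted p up to 0.117). These contrasts also set lines whose ACTB ratio moved in opposite directions against each other. Between MM.1R and MM.1S the effect of coculture was called different by limma for 0 of the 21 member probe sets, of which 3 had an unadjusted p under 0.05, against 0.398% of all probe sets. The MM.1R effect minus the MM.1S effect was -0.19 ± 0.77 for SOCS3, with an interval of -1.96 to 1.58.

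Cells kept alone already differed. INA-6 alone against the mean of MM.1S alone and MM.1R alone gave calls for 7 of the 21 member probe sets, 33.3% against 51.8% of all probe sets. Higher in INA-6 alone were SOCS3 by 227697_at (167 and 40.3 against 1.29 to 5.32, 3.48 ± 0.47, adjusted p = 0.000392), STAT3 by 208991_at (1.76 ± 0.22, adjusted p = 0.000232) and 208992_s_at (1.61 ± 0.22, adjusted p = 0.000374), and SOCS2 (1.08 ± 0.23, adjusted p = 0.00461). Not called were the second SOCS3 probe set, 206359_at, at -0.23 ± 0.33 (adjusted p = 0.588) and the leading STAT3 probe set, 225289_at, at -0.59 ± 0.46 (adjusted p = 0.313). Lower in INA-6 alone were PIM1 (38.6 and 17.2 against 66.5 to 294, -2.54 ± 0.38, adjusted p = 0.000674) and JAK1 by 1552611_a_at (-1.97 ± 0.26, adjusted p = 0.000321) and 239695_at (-0.62 ± 0.22, adjusted p = 0.0458). The last call was lost without any 1 of 11 arrays, all but INA-6 alone replicate 2 (-0.70 to -0.30, adjusted p up to 0.207). This comparison shares its arrays of cells alone with the comparison of effects above. MM.1R alone differed from MM.1S alone by 1 of the 21, 4.76% against 6.95% of all probe sets: STAT3 by 208991_at was 1.03 ± 0.25 higher in MM.1R alone (adjusted p = 0.0493), a call lost without any 1 of 10 arrays, INA-6 alone excepted (0.73 to 1.32, adjusted p up to 0.31). PIM1 read 276 and 294 in MM.1R alone against 66.5 and 176 in MM.1S alone, a difference of 1.35 ± 0.44 that was not called (adjusted p = 0.118).

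The rest of the pathway was read from lists chosen with knowledge of earlier results, at 1 probe set per gene and with the lines as replicates, where 1.49% of all 15052 genes were called. Of 8 ligands of the IL6 family tested, 3 were higher in coculture and 0 lower: IL6 by 6.39 ± 0.61 (adjusted p = 0.0103), IL11 by 4.34 ± 0.54 (adjusted p = 0.0233) and LIF by 3.84 ± 0.54 (adjusted p = 0.0347). Within the lines, 4 of the 8 were higher and 1 lower in MM.1S, 4 and 0 in MM.1R, and 3 and 4 in INA-6. Of all genes, 22.8%, 12% and 38.2% were higher in these lines, and 7.69%, 2.13% and 12.5% lower. The ligands called lower were IL21, CNTF, CTF1 and OSM in INA-6, and CTF1 in MM.1S. IL6 itself averaged 2582, 5125 and 1598 in MM.1S, MM.1R and INA-6 coculture, against 16.4, 25.0 and 68.1 alone, and moved with the stromal markers, of which 11 of 32 were called higher. Of 11 receptors, 1 was higher and 0 lower, OSMR, the receptor chain for oncostatin M, by 3.97 ± 0.49 (adjusted p = 0.0233), while IL10RB, next in size, stood at 1.89 (adjusted p = 0.168). The IL6 receptor chains, named after their values were seen, were not called in this fit: IL6R stood at 0.17 ± 0.39 and IL6ST at 0.70 ± 0.38. Within the lines IL6ST was called higher in MM.1S (1.03, limma adjusted p = 0.0279) but not in MM.1R or INA-6, and IL6R in no line. IL6R averaged 237 in INA-6 coculture and 286 in INA-6 alone, beside 1925 to 2734 over the 4 MM.1 groups.

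Among the other kinases and STATs limma called 0 of 6, of which 2 had an unadjusted p under 0.05, with JAK3 at 2.02 (adjusted p = 0.109) and STAT4 at 1.80 (adjusted p = 0.105). Among 13 other inhibitors of the pathway it called 0, while 3 had an unadjusted p under 0.05, with SOCS7, of the same family as SOCS3, at 1.6 (adjusted p = 0.198) and the phosphatase PTPN1 at 1.23 (adjusted p = 0.168). Of 27 other genes known as STAT3 targets, 2 were higher and 0 lower: BCL6, a transcriptional repressor, by 4.43 ± 0.45 (adjusted p = 0.0122) and CEBPD, a transcription factor of the acute phase, by 3.69 ± 0.45 (adjusted p = 0.022). BCL6 averaged 294, 397 and 399 in MM.1S, MM.1R and INA-6 coculture, against 7.15, 6.69 and 29.8 alone. Within the lines, 16 of the 27 were higher in MM.1S, 12 in MM.1R and 15 in INA-6, against 22.8%, 12% and 38.2% of all genes, and 0, 0 and 1 were lower, against 7.69%, 2.13% and 12.5%. The list shares TIMP1 with the stromal markers, and IRF4 and PRDM1 with the myeloma markers, so these counts are not separate.

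**Figure D4:**
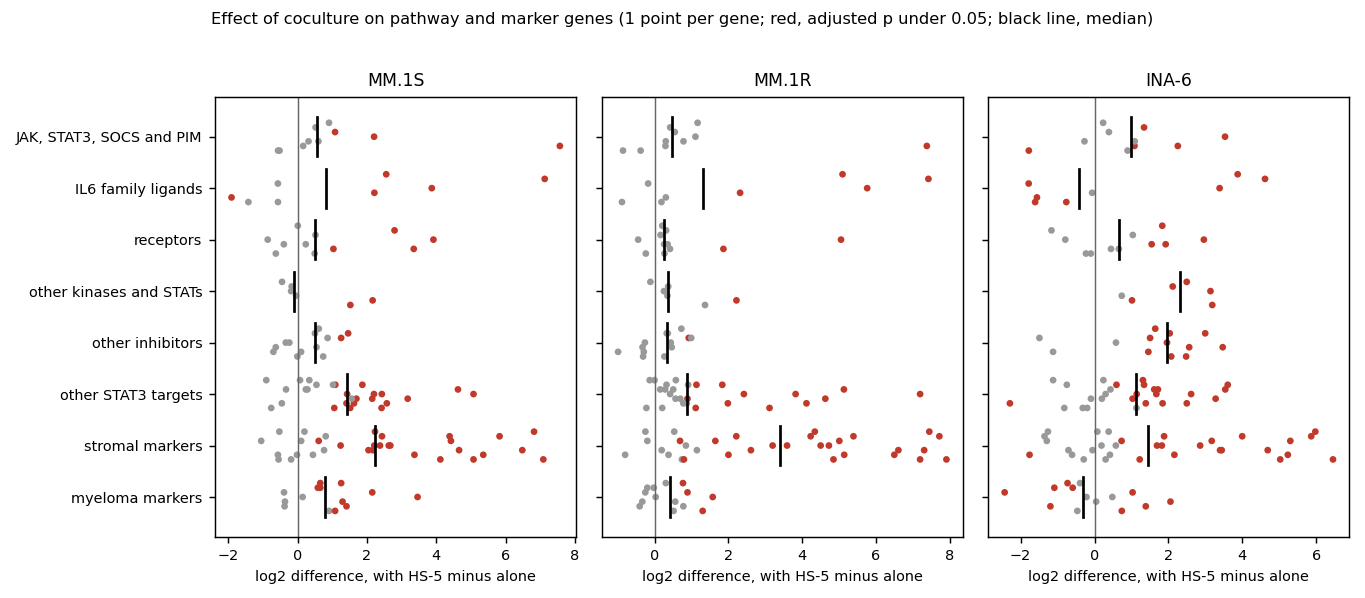
Difference of coculture from cells alone (log2, horizontal axis) in each line for the members, the pathway lists and the marker lists, with 1 point per gene; red, limma adjusted p under 0.05; black line, median of the list. The members' medians of 0.56, 0.48 and 0.99 lie below the stromal markers' medians of 2.22, 3.39 and 1.46.

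The members did not follow 1 shared pattern over the 6 groups. Pearson's r between the mean log2 values of 2 members, over 6 group means that share their arrays, was 0.983 for SOCS1 and SOCS3, 0.935 for JAK1 and PIM1 and 0.85 for PIM1 and PIM2, but 0.515 for SOCS3 and PIM1. It was -0.973 for STAT3 and SOCS2. The genes most like SOCS3, out of 15051, were NAP1L1 (0.9948), ARIH2OS (0.9902), STAT4 (0.9896), IFT81 (0.9894) and KIF9 (0.9867). Those most like PIM1 were PAPSS1 (0.9995), CRKL (0.999), PITRM1 (0.9983), GID4 (0.9982) and FASTKD5 (0.9975), and those most like PIM2 were APIP (0.998), HAUS1 (0.9965), SRP9 (0.9959), TM7SF3 (0.9948) and NDUFA7 (0.9948). With 6 points a high r carries little weight. Of the 15051 genes, 109 reached an r of 0.95, a bound below the values named, with SOCS3, 754 with PIM1 and 261 with PIM2.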

How the data were processed

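The authors deposited 1 linear intensity per probe set and array, for 54675 probe sets on 12 Affymetrix U133 Plus 2.0 arrays. MAS5 is the tool that the submitters' processing notes name, whereas the series text describes dChip, so which of them made the values is not settled, and their settings were not given in the sources used here. An array holds no counts, and the number of arrays limits the precision.

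Probe sets were named from the array's annotation: 41097 had 1 symbol, 1801 several and 11777 none, and 0 of 41043 symbols looked up by gene ID changed. Controls (62) and 1 probe set with a missing value were left out. After log2(value + 5), a probe set was tested if it exceeded its array's median on at least 2 of the 12 arrays (35664). For each of 15052 genes, the tested probe set with the highest mean stood for it.

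limma 3.58.1 (R 4.3.3) gave all tests, two-sided, with Benjamini-Hochberg adjustment. The effect common to the lines was fitted on 6 group averages with the line as a block. Effects within lines and their differences came from 12 arrays with a mean per group, and their p-values measure only the spread between duplicate arrays. The fits were tested on simulated data. Figures were drawn with matplotlib 3.10.9. Alternatives were the value added, the scaling, the filter, 1 probe set per gene, arrays not averaged, a replicate block, and leaving out a line or an array. All 10 genes are named with every probe set. From each list at most the 3 largest rises and falls passing the common fit are named, or, where 0 or 1 passed, the 2 of largest size, and for SOCS3, PIM1 and PIM2 the 5 genes of highest Pearson's r. The genes and lists were chosen with earlier results of these data known. Of the lists, 2 STAT genes were not analysed here.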

Additional observations from a re-analysis of the deposited data

Results flagged for a closer look

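For 9 member probe sets limma's test found that the effect of coculture in INA-6 differed from the mean effect in MM.1S and MM.1R, on the log2 scale with adjusted p over all probe sets. The effect was smaller in INA-6 for SOCS3 (-5.22, adjusted p = 0.000659, by 227697_at and -2.90, adjusted p = 0.00204, by 206359_at) and for STAT3 (-2.32, adjusted p = 0.000793, by 208991_at and -1.97, adjusted p = 0.00168, by 208992_s_at), although the leading STAT3 probe set, 225289_at, stood at 0.40 and was not called (adjusted p = 0.669). SOCS2 moved further down in INA-6 (-1.09, adjusted p = 0.0308). The effect was larger in INA-6 for PIM1 (1.88, adjusted p = 0.0262), PIM3 (0.87, adjusted p = 0.0419) and JAK1 by 1552611_a_at (3.05, adjusted p = 0.000473). For JAK1 by 239695_at the difference was 1.04 (adjusted p = 0.0315), with effects of 0.08 in INA-6, -1.25 in MM.1S and -0.67 in MM.1R, of which that in MM.1S was called. These p-values measure the spread between duplicate arrays, and no culture of a line was repeated.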

How the results depend on the processing

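With the lines as replicates, 0 member probe sets were called. The count was 1 with 1 probe set per gene, 1 without the line MM.1S, 1 without the line MM.1R, 7 without the line INA-6, 9 with the 12 arrays not averaged, and 0 to 1 with each array left out. With a line left out few values remain, and arrays not averaged count technical replicates as if they were cultures. Over 35664 probe sets the test with the lines as replicates gave 402 calls, and 176 without the filter to 10024 with arrays not averaged. With 1 probe set per gene the member counts were 3 in place of 8 in MM.1S, 2 in place of 5 in MM.1R, 4 in place of 9 for the difference of INA-6 from the MM.1 lines and 3 in place of 7 for INA-6 alone against the MM.1 lines alone, since fewer probe sets were tested. In MM.1R the count was 10 without the INA-6 arrays, and 4 to 10 with each array left out. The difference of effects gave 5 to 12 with each array left out. MM.1R alone against MM.1S alone gave 0 with 1 added before the log, on median centring and without the filter, 2 with 20 added, with the stricter filter and without the INA-6 arrays, and 0 to 4 with each array left out. Of the 5 probe sets at least 2-fold changed the same way in each line, 3 were counted with 20 added and on quantile normalization, 2 with 1 probe set per gene, and 3 to 5 with each array left out. The cause was not tested.

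Calls over all probe sets reached 16523 in MM.1S (10465 as reported), 11001 in MM.1R (4978), 22021 in INA-6 (17026), 19926 for the difference of INA-6 from the MM.1 lines (13147), 4770 for that of MM.1R from MM.1S (142) and 8265 for MM.1R alone against MM.1S alone (2478) without INA-6 alone replicate 1. The lowest counts in MM.1S, in INA-6 and for the difference of INA-6 from the MM.1 lines were 4858, 7860 and 5894. These came with 1 probe set per gene, where 15052 were tested in place of 35664, so they are not fewer calls at like size. For the difference of MM.1R from MM.1S the lowest count was 0, without the filter. Quantile normalization moved the median of all probe sets in INA-6 to 0.16, against 0.40 as reported, and the share of calls that were higher in coculture to 57.5% in MM.1S, 57.1% in MM.1R and 60.8% in INA-6, against 69.4%, 75.1% and 73.7%. Among members it gave 6 higher and 1 lower in MM.1S, 4 and 1 in MM.1R and 6 and 2 in INA-6.

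No called effect changed sign. Uncalled values that did were the common effects of JAK1 by 1552611_a_at (-0.54 without INA-6), of CISH (0.039 with 20 added, 0.26 without MM.1S, 0.16 without MM.1R, -0.36 to 0.33 with each array left out), of STAT3 by 243213_at (-0.076 on quantile normalization, -0.33 to 0.51 with each array left out) and of JAK2 by 205842_s_at (-0.18 to 0.41). JAK1 by 201648_at in MM.1S stood at -0.18 on quantile normalization. With each array left out, JAK2 by 205842_s_at ranged from -0.50 to 1.12 in MM.1S and -1.16 to 0.61 in INA-6, CISH from -1.19 to 0.052 in MM.1S and -1.42 to 0.66 in MM.1R, and SOCS1 by 210001_s_at from -0.16 to 0.62 in INA-6. Same-numbered arrays deviated together at correlations of 0.385, 0.576 and 0.078 in MM.1S, MM.1R and INA-6. The main fits did not pair arrays by number, although the values in the MM.1 lines were positive, and a replicate block was run as an alternative. With the replicate block, on arrays not averaged, the common fit called 9 member probe sets, and MM.1R alone against MM.1S alone 0.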

Other observations

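The genes below were named after their values were seen. Of 6 other kinases and STATs tested, 5 were higher in INA-6 coculture, against 38.2% of all genes, and 2 in MM.1S and 1 in MM.1R, against 22.8% and 12%. The kinase TYK2 stood at 2.49 in INA-6 (limma adjusted p = 9.2e-05), beside -0.45 in MM.1S and -0.11 in MM.1R, and STAT5B at 3.14 (adjusted p = 0.00393), beside -0.19 and 0.25. Of 13 other inhibitors, 10 were higher in INA-6, 2 in MM.1S and 1 in MM.1R, against the same shares of all genes, so the counts in the MM.1 lines lay under them. Lower were 0 in any line, against 12.5%, 7.69% and 2.13% of all genes. Of 3 survival genes among STAT3's known targets, MCL1 was higher in each line (1.87, 1.13 and 1.34 in MM.1S, MM.1R and INA-6, adjusted p up to 0.00367), while BCL2L1, which encodes BCL-XL, was called in MM.1S (1.43, adjusted p = 0.0184) and INA-6 (2.61, adjusted p = 0.000582) and stood at 0.42 in MM.1R. BIRC5, which encodes survivin, was called in MM.1S (1.09, adjusted p = 0.00158) and INA-6 (0.59, adjusted p = 0.0171) and stood at 0.32 in MM.1R. The 3′ to 5′ ratio of ACTB was 32 in INA-6 coculture against 5.52 in INA-6 alone, and its part in these values was not tested.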
